A study of Homo sapiens with 6 samples.

Results

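The genes described here are 10 members of the Notch pathway in TFK1 cells, namely the receptors NOTCH1, NOTCH2, NOTCH3 and NOTCH4, the ligands JAG1, JAG2 and DLL1, and the target genes HES1, HEY1 and HES4. They were picked by gene symbol from the 23569 genes of the expression table, and all 10 were found. TFK1 is a human cell line from a carcinoma of the bile duct outside the liver. RNA was sequenced in 3 libraries of cells transduced with a control lentivirus (oeNC, genotype negative control) and in 3 libraries of cells transduced to overexpress STUB1 (oeSTUB1), both kept under puromycin selection and otherwise untreated according to the labels. STUB1 encodes an E3 ubiquitin ligase and co-chaperone. The question behind the design was which genes change when STUB1 is raised in cholangiocarcinoma cells. Each group was 1 stably transduced population as far as the sources tell, and the methods state in general that experiments were repeated independently, without saying so of the sequenced libraries. If the libraries did not come from separate cultures, the p-values measure only the spread between libraries, which may be technical.

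Notch receptors are single-pass membrane proteins that are activated by ligands on neighbouring cells. Binding of a Jagged or Delta ligand exposes the receptor to cleavage by an ADAM protease and then by gamma-secretase, and the freed intracellular part enters the nucleus, joins the DNA-binding protein RBPJ and a Mastermind coactivator, and switches on genes of the HES and HEY families, which encode transcriptional repressors. In the liver, Notch signalling from JAG1 to NOTCH2 is needed for the formation of bile ducts.

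The values are FPKM, the fragments of a gene divided by its length and by the size of the library, so levels can be set side by side between genes. STUB1 itself stood at 32.9, 33.0 and 30.9 FPKM in oeNC and at 61.4, 74.97 and 61.9 FPKM in oeSTUB1 replicates, a rise of 1.03 in log2 units (standard error 0.097, adjusted p = 0.00064 from limma). JMJD8, which shares 983 exon bases with STUB1 on the opposite strand, stood between 28.7 and 40.8 FPKM, and the use of strand in counting is not known. Libraries held between 33106564 and 36744521 fragments. Of 9 biliary epithelial markers, 8 had a mean of at least 1 FPKM, the exception being CLDN4. In oeSTUB1 cells 6 of the 9 were called lower, 1 higher and 2 not called (adjusted p under 0.05 from limma). Of all tested genes, 6.59% were called lower and 7.01% higher. KRT19, the marker called higher, was low in both groups, with means of 0.453 and 2.97 FPKM. KRT7 and CLDN4, which were not called, also had higher means in oeSTUB1 libraries. These were 502 in oeNC and 704 FPKM in oeSTUB1 for KRT7, and 0.274 and 0.564 FPKM for CLDN4. The summed level of the 9 was 7542 to 8134 FPKM in oeNC and 4811 to 6372 FPKM in oeSTUB1 libraries. Most of this sum was KRT8 and KRT18, whose means fell from 3216 to 2172 FPKM and from 3964 to 2488 FPKM. What part these marker differences had in the Notch values was not tested. Endothelial markers summed to at most 0.275 FPKM in any library, and VWF, CDH5, KDR, TEK, ERG, CLDN5 and EMCN each had a mean below 0.1 FPKM. Of 10 mesenchymal markers, 4 were tested with none called, their summed level was 465 to 533 FPKM in oeNC and 456 to 629 FPKM in oeSTUB1 libraries, most of it VIM, and COL1A2, COL3A1, DCN, PDGFRA, PDGFRB and THY1 each had a mean below 0.1 FPKM. Of 8 hepatocyte markers 2 were tested. CPS1 was called lower, with means of 96.6 FPKM in oeNC and 43.7 FPKM in oeSTUB1 libraries. SERPINA1 was not called, at 0.801 and 0.931 FPKM. Of 6 leukocyte markers 4 were tested. CD68 was called lower, with means of 27.2 FPKM in oeNC and 19.2 FPKM in oeSTUB1 libraries, and PTPRC, CD14 and LYZ were not called.

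One library stood apart by gene length, which touches the long Notch genes. In oeSTUB1 replicate 2, genes shorter than 2000 bases lay a median of 0.33 log2 units above the mean of the other oeSTUB1 libraries (3605 genes), and genes of at least 8000 bases lay 0.42 log2 units below it (2240 genes). Among the oeNC libraries no such median went beyond -0.05 or 0.04. The log2 fold changes of the 9 tested members are therefore given with and without oeSTUB1 replicate 2.

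**Figure D1:**
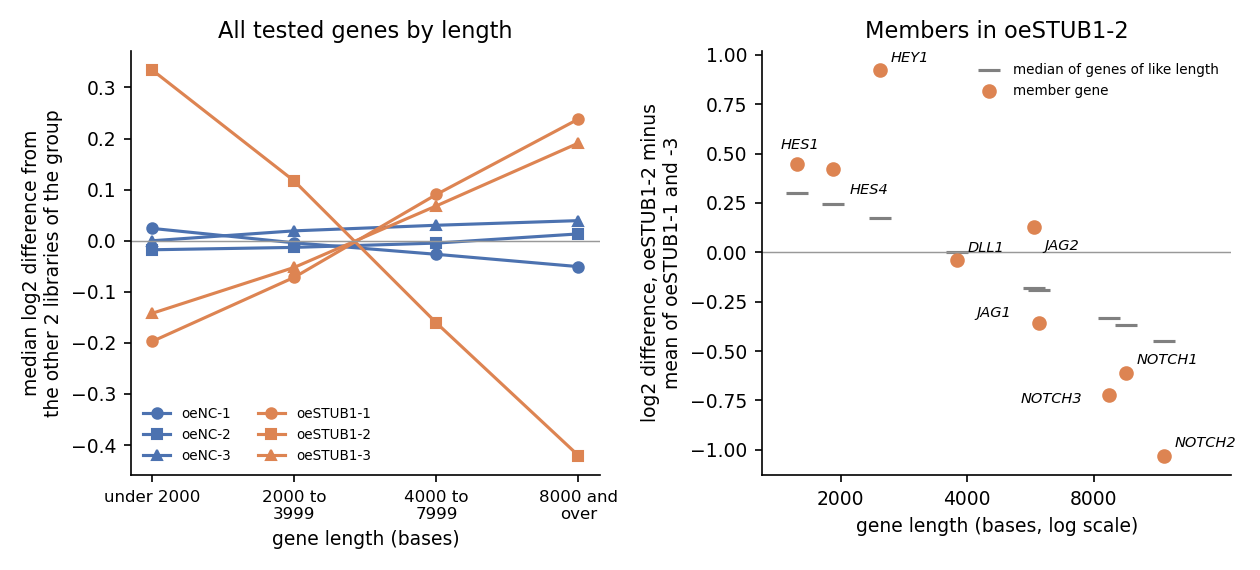
Left, median log2 difference of each library from the mean of the other libraries of its group (vertical axis) for tested genes in 4 classes of gene length in bases (horizontal axis). Right, the same difference for oeSTUB1 replicate 2 and each tested member against its length on a log axis, with grey bars for the median of all tested genes of like length. oeSTUB1 replicate 2 fell from 0.33 in the shortest to -0.42 in the longest class, and NOTCH2, the longest member at 11784 bases, lay at -1.03 where genes of like length had a median of -0.45.

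Promoter windows are shown for a pair of target genes, because their promoters are where RBPJ acts, and for NOTCH3, the member with the largest called change relative to its error. RefSeq windows on GRCh38.p14 from 250 bases before to 50 bases after the start site were matched for 8 of the 10 members. DLL1 and HEY1 had no match. The capitals in HES1 (chr3:194135898-194136197, plus strand) and HES4 (chr1:1000048-1000347, minus strand) mark TGGGAA, the core of the RBPJ recognition sequence, found on either strand. The capitals in NOTCH3 (chr19:15200946-15201245, minus strand) mark each CG dinucleotide, the site that DNA methyltransferases act on. Methylation was not measured in these libraries.
HES1: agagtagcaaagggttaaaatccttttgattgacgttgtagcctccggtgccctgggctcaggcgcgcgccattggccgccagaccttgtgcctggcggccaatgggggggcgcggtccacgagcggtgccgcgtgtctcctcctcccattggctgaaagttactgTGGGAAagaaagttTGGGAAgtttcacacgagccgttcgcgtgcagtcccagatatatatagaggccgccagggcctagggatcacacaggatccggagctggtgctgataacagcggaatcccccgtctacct
HES4: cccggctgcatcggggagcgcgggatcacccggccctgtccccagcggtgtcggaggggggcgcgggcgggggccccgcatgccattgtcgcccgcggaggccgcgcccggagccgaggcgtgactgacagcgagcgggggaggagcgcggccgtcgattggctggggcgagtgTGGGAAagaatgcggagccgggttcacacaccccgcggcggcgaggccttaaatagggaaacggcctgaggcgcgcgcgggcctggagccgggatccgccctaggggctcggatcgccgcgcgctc
NOTCH3: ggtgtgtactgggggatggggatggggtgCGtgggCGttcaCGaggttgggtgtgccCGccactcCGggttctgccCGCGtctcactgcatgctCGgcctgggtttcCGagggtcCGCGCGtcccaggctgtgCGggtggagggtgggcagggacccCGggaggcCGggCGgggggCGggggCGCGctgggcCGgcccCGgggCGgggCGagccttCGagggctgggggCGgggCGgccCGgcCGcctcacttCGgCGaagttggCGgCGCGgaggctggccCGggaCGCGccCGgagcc

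The HES1 window held TGGGAA beginning 84 and 70 bases before the start site, and the HES4 window held it once, beginning 76 bases before. In each gene 1 match was part of the longer form GTGGGAA. Among 35093 promoter windows of the same length, 24% held TGGGAA on either strand, 3.79% held it more than once and 6.25% held GTGGGAA, which contains TGGGAA. The longest stretch common to the HES1 and HES4 windows was tgtgggaaagaa, 12 bases that include the longer form, beginning 86 and 78 bases before the start sites, and 8 of all windows held it on either strand. The letters TGGGAA were in neither strand of the NOTCH1, NOTCH2, NOTCH3, NOTCH4, JAG1 and JAG2 windows. The NOTCH3 window had 37 CG dinucleotides, more than 88.7% of all windows, where the median was 14. Of the other matched members, NOTCH4 had 5, HES1 21, JAG1 24 and NOTCH2 33. NOTCH1, HES4 and JAG2, which were not called, had 42, 44 and 46, more than NOTCH3.

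Expression of 2 of the 10 genes, NOTCH3 and DLL1, fell after STUB1 overexpression, and none rose. Groups were compared with limma on log2(FPKM + 0.1), two-sided, for the 15353 genes averaging 0.1 FPKM or more, and a gene was called at a Benjamini-Hochberg adjusted p under 0.05. NOTCH4 was below that minimum, so 9 members were tested, with 2 called lower and 7 not called. Of all tested genes, 6.59% were called lower and 7.01% higher. Both lower members also passed a log2 fold change of -1, which 2.4% of all tested genes did together with the adjusted p, against 0 members and 2.79% of all tested genes for a log2 fold change over 1. At an unadjusted p under 0.05, 4 members were lower and 0 higher, against 13.7% and 16% of all tested genes. The median log2 fold change was -0.29 over the 9 members and 0.02 over all tested genes. For 3 members, NOTCH3, JAG1 and DLL1, every oeSTUB1 library lay below every oeNC library, as was so for 17.3% of all tested genes. Fewer cells expressing a gene and less RNA of it per cell cannot be told apart in these samples.

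**Figure D2:**
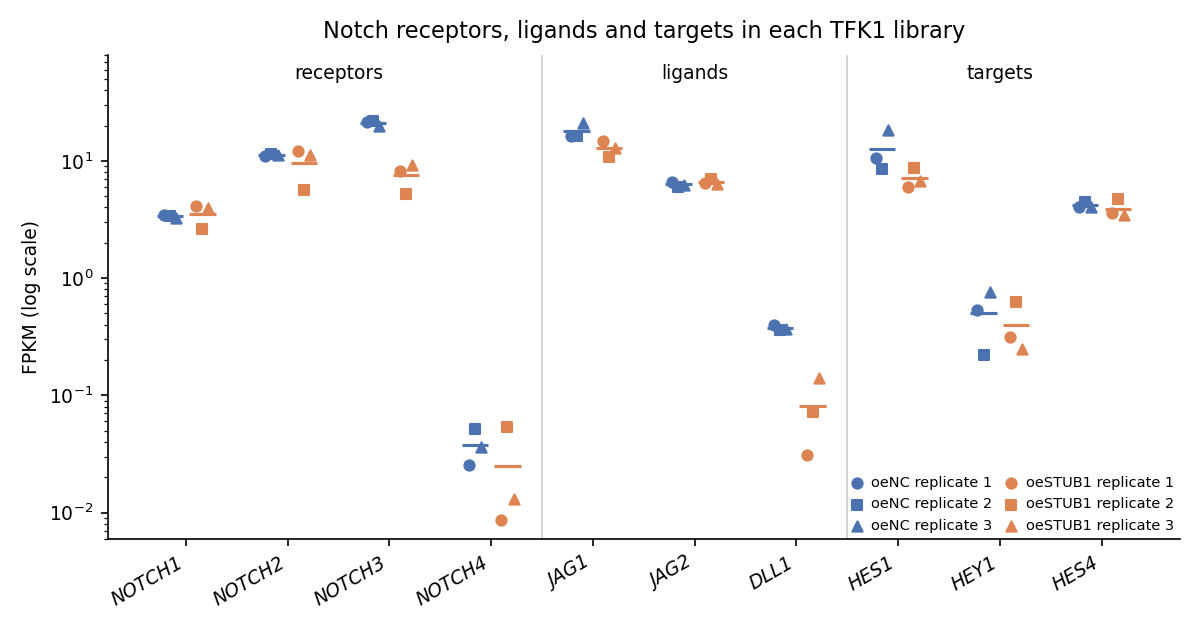
FPKM on a log axis of the 10 members in each library, blue for oeNC and orange for oeSTUB1, with the marker shape giving the replicate and a bar the group mean (n = 3 libraries each). NOTCH3, JAG1 and DLL1 show no overlap between the groups, and the other members overlap.

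NOTCH3 fell most clearly among the receptors. This receptor is best known from smooth muscle cells and pericytes of blood vessels and is also expressed by several carcinomas. In GENCODE release 29 on GRCh38 it is a protein-coding gene of the minus strand, at positions 15159038 to 15200981 of chromosome 19, and its counted length was 8680 bases. Its expression was 21.4, 21.8 and 19.7 FPKM in oeNC replicates 1, 2 and 3 and 8.24, 5.24 and 9.18 FPKM in oeSTUB1 replicates 1, 2 and 3. All oeSTUB1 libraries were below all oeNC libraries, with the lowest value in oeSTUB1 replicate 2. These values rested on 6449, 6564 and 6299 against 2466, 1506 and 2723 fragments. The mean fell from 21.0 ± 1.09 to 7.56 ± 2.06 FPKM (SD, n = 3 each), or 2.78-fold, with a log2 fold change of -1.50 (standard error 0.19, 95% confidence interval -1.94 to -1.06, adjusted p = 0.0023 from limma). Without oeSTUB1 replicate 2 the log2 fold change was -1.26 (adjusted p = 5.7e-05 from limma), and it was -1.43 after a correction of every library for gene length, which was chosen after the data were seen. Genes on chromosome 19 had a median log2 fold change of 0.05.

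NOTCH1 and NOTCH2 were not called. NOTCH2, the receptor tied to bile duct formation, stood at 10.9, 11.5 and 11.2 FPKM in the oeNC libraries and at 12.1, 5.64 and 11.1 FPKM in the oeSTUB1 libraries. The groups overlapped, and only oeSTUB1 replicate 2 stood low. The NOTCH2 gene spans 119911553 to 120069626 on chromosome 1 and NOTCH1 spans 136494433 to 136545786 on chromosome 9, both on the minus strand. The log2 fold change was -0.29 (95% confidence interval -0.89 to 0.31, adjusted p = 0.49 from limma) with all libraries and 0.052 (adjusted p = 0.57 from limma) without oeSTUB1 replicate 2. NOTCH1, which drives T-cell development and is a frequent target of mutation in leukaemia, was expressed at 3.42, 3.39 and 3.27 FPKM in oeNC and at 4.09, 2.60 and 3.95 FPKM in oeSTUB1 libraries. Here too oeSTUB1 replicate 2 was below all oeNC libraries whereas the others were above them. Its log2 fold change was 0.05 (95% confidence interval -0.35 to 0.45, adjusted p = 0.88 from limma), and without oeSTUB1 replicate 2 it was 0.25 and called (adjusted p = 0.047 from limma). NOTCH1 lies on chromosome 9, where 604 tested genes had a median log2 fold change of 0.16. NOTCH4, a receptor best known from endothelium, was barely covered, with 6, 12 and 9 fragments in oeNC and 2, 12 and 3 fragments in oeSTUB1 libraries. Its groups overlapped and no difference was detectable at this depth. With no minimum level limma gave -0.15 in log2 units for NOTCH4, at an adjusted p of 0.61.

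The make-up of the receptor pool differed accordingly. Of the FPKM summed over the 4 receptors, NOTCH3 held 59.8%, 59.3% and 57.7% in oeNC replicates 1, 2 and 3 and 33.7%, 38.7% and 37.8% in those of oeSTUB1. NOTCH2 held 30.6%, 31.3% and 32.6% against 49.6%, 41.7% and 45.8%, so that NOTCH3 was the main receptor transcript in each oeNC library and NOTCH2 in each oeSTUB1 library. NOTCH1 held 9.44% ± 0.199 in oeNC and 17.4% ± 1.58 in oeSTUB1 libraries (SD, n = 3 each). For NOTCH1, NOTCH2 and NOTCH3 the shares did not overlap between the groups (two-sided exact permutation test, p = 0.1 each, the smallest p that 3 against 3 libraries allow). As parts of the same sum these shares are not separate results, since a lower NOTCH3 level alone raises the shares of the other receptors. Without oeSTUB1 replicate 2 the difference in share, oeSTUB1 minus oeNC, went from -22.2 to -23.2 percentage points for NOTCH3, from 14.2 to 16.2 for NOTCH2 and from 7.95 to 7.05 for NOTCH1. A share within a library does not change with library scaling. The ratio of NOTCH3 to NOTCH1, 2 receptors of similar length, was 6.25, 6.44 and 6.05 in oeNC and 2.02, 2.02 and 2.33 in oeSTUB1 libraries, and oeSTUB1 replicate 2 did not stand apart in it. The summed receptor FPKM was 35.6 ± 1.28 for oeNC and 20.8 ± 6.26 for oeSTUB1 (SD, n = 3 each), where oeSTUB1 replicate 2 had 13.5 and the other oeSTUB1 replicates 24.5 and 24.3.

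**Figure D3:**
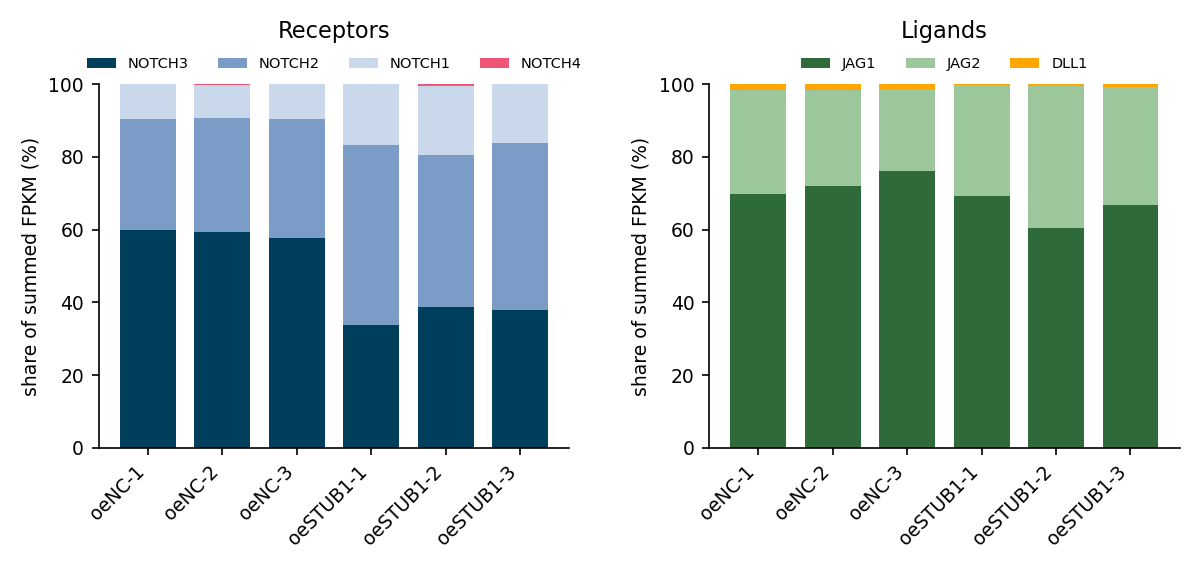
Share in percent of the FPKM summed over the 4 receptors (left) and the 3 ligands (right) in each of the 6 libraries, stacked by gene. NOTCH3 takes the largest part of each oeNC bar and NOTCH2 of each oeSTUB1 bar, while JAG1 is the largest ligand in all 6.

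Among the ligands, DLL1 fell from a low level. DLL1 encodes a Delta-like ligand that activates Notch receptors on adjacent cells and is a minus-strand gene at positions 170282206 to 170306565 of chromosome 6. The oeNC replicates had 52, 47 and 51 DLL1 fragments and the oeSTUB1 replicates 4, 9 and 18, which correspond to 0.396, 0.358 and 0.367 FPKM against 0.0307, 0.0718 and 0.139 FPKM. The oeNC libraries lay close together, and the oeSTUB1 libraries were all lower but spread over several fold. The mean FPKM was lower by a factor of 4.64. On the log2 scale the difference was -1.43 (standard error 0.27, 95% confidence interval -2.05 to -0.82, adjusted p = 0.012 from limma), which the pseudocount pulls towards 0, since it was -2.39 with limma-voom on fragments and -0.35 with a pseudocount of 1. The call was lost without oeNC replicate 1, 2 or 3 (adjusted p = 0.057, 0.052 and 0.052 from limma), with log2 fold changes of -1.40, -1.46 and -1.44. Without oeSTUB1 replicate 2 it held, at -1.42 (adjusted p = 0.015 from limma). FAM120B, which overlaps the DLL1 locus on the opposite strand without sharing exon bases, stayed between 3.11 and 4.54 FPKM over the 6 libraries.

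JAG1 (chromosome 20, 10637684 to 10673999, minus strand) was the most abundant ligand and was not called. JAG1, the ligand altered in Alagille syndrome, a disorder with too few bile ducts, stood at 16.4, 16.4 and 21.1 FPKM in oeNC and at 14.8, 10.8 and 12.96 FPKM in oeSTUB1 libraries. The highest oeSTUB1 value was below the lowest oeNC value, with oeNC replicate 3 above its group and oeSTUB1 replicate 2 at the bottom. Its log2 fold change of -0.48 (95% confidence interval -0.82 to -0.14) had an adjusted p = 0.068 from limma. It passed with quantile normalization (-0.52, adjusted p = 0.048 from limma) and with the correction for gene length (-0.46, adjusted p = 0.018 from limma), and leaving out oeSTUB1 replicate 2 gave -0.36 (adjusted p = 0.063 from limma). JAG2 (chromosome 14, 105140981 to 105168824, minus strand), the second Jagged ligand, was steady, at 6.66, 6.02 and 6.24 FPKM in oeNC and 6.52, 7.02 and 6.30 FPKM in oeSTUB1 libraries. The JAG2 groups overlapped and the log2 fold change was 0.067 (95% confidence interval -0.14 to 0.27, adjusted p = 0.66 from limma), or 0.024 without oeSTUB1 replicate 2 (adjusted p = 0.83 from limma). JAG1 held 72.7% ± 3.18 of the FPKM of the 3 ligands in oeNC and 65.5% ± 4.64 in oeSTUB1 cells, JAG2 25.8% ± 2.99 and 34.1% ± 4.59, and DLL1 1.53% ± 0.187 and 0.421% ± 0.287 (SD, n = 3 each, two-sided exact permutation test, p = 0.1 for each). These shares too are parts of the same sum and not separate results, and the level of JAG2 itself was steady. Without oeSTUB1 replicate 2 the difference in share, oeSTUB1 minus oeNC, went from -7.19 to -4.61 percentage points for JAG1, from 8.29 to 5.71 for JAG2 and from -1.11 to -1.10 for DLL1.

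None of the 3 target genes was called. HES1 (chromosome 3, 194136145 to 194138732, plus strand), a repressor that Notch switches on in many tissues, was expressed at 10.5, 8.57 and 18.4 FPKM in oeNC and at 6.03, 8.71 and 6.71 FPKM in oeSTUB1 libraries. The groups overlapped by a narrow margin, at oeNC replicate 2 and oeSTUB1 replicate 2, and oeNC replicate 3 was the highest library. The log2 fold change was -0.74 (standard error 0.27, 95% confidence interval -1.36 to -0.11, adjusted p = 0.12 from limma). It was -0.42 (adjusted p = 0.23 from limma) without oeNC replicate 3, -0.89 (adjusted p = 0.055 from limma) without oeSTUB1 replicate 2, and -0.81 and called (adjusted p = 0.041 from limma) after the correction for gene length. HES4, whose promoter window shares the stretch shown above with HES1, was at 4.07, 4.45 and 4.05 FPKM in oeNC and at 3.55, 4.74 and 3.46 FPKM in oeSTUB1 libraries. The HES4 groups overlapped through oeSTUB1 replicate 2, and the log2 fold change was -0.11 (95% confidence interval -0.42 to 0.21, adjusted p = 0.64 from limma). Leaving out that library moved HES4 to -0.25 (95% confidence interval -0.44 to -0.062, adjusted p = 0.057 from limma), still not called. HEY1, a repressor of the same family, varied several fold within each group, with 46, 19 and 69 fragments in oeNC and 27, 51 and 21 fragments in oeSTUB1 libraries. Its log2 fold change of -0.25 had a 95% confidence interval of -1.19 to 0.70 (adjusted p = 0.73 from limma), and it was -0.56 without oeSTUB1 replicate 2 (adjusted p = 0.34 from limma) and changed sign without oeNC replicate 3 (0.061). Within the oeNC group the SD was largest relative to the mean for HEY1 and HES1, at 53.4% and 41.9% of the mean, against 2.47% for NOTCH1 and 15.1% for JAG1.

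**Figure D4:**
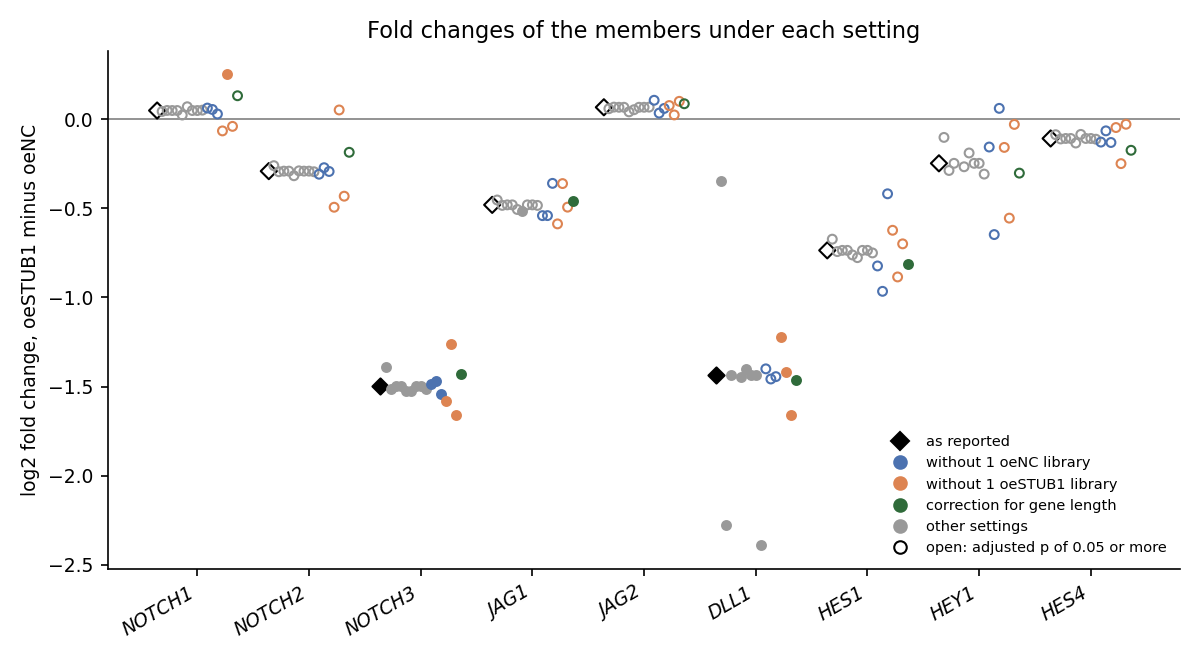
Log2 fold change, oeSTUB1 minus oeNC, of the 9 tested members under each setting, with filled symbols where the adjusted p was under 0.05. NOTCH3 is filled and between -1.66 and -1.26 throughout, DLL1 moves with the pseudocount, and HEY1, NOTCH1 and NOTCH2 cross 0 when 1 library is left out.

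The order of the members by mean level changed at the top. The oeSTUB1 means include replicate 2, where short genes lay higher and long genes lower, and the order without it was not worked out. In oeNC cells it ran NOTCH3, JAG1, HES1, NOTCH2, JAG2, HES4, NOTCH1, HEY1, DLL1, NOTCH4, where the ranges of NOTCH3 and JAG1, of JAG1 and HES1, of HES1 and NOTCH2, and of HEY1 and DLL1 overlapped and the other neighbours were apart. In oeSTUB1 cells it ran JAG1, NOTCH2, NOTCH3, HES1, JAG2, HES4, NOTCH1, HEY1, DLL1, NOTCH4, and neighbours among the first 5 overlapped, as did HES4 and NOTCH1, and DLL1 and NOTCH4. NOTCH3 had a higher mean than 89.3% of the genes in the table in oeNC cells and than 74.95% in oeSTUB1 cells. JAG1 stood above 87.6% and 82.8%, respectively.

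A further 63 genes of the pathway, listed by role with earlier results of these data known, gave 61 genes in the table and 60 tested. Of these 7 were lower, 7 higher and 46 not called, that is 14 of 60 where 13.6% of all tested genes were called. Their median log2 fold change was -0.03. All 14 calls held without oeSTUB1 replicate 2. The role groups held 4 to 13 tested genes each. The most called in the same direction in a role group were 3 of 10 repressor cofactors, which were higher, against 7.01% of all tested genes.

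Of the other ligands, 1 of 4 was called, where 13.6% of all tested genes were called in either direction. DNER, an atypical Notch ligand known from neurons, rose from 0.557, 0.629 and 0.393 to 1.94, 2.33 and 1.87 FPKM, or by 1.79 in log2 units at an adjusted p of 0.00091 from limma. All its oeSTUB1 libraries were above all oeNC libraries, and the call held in every alternative. DLL3 and DLK2, an inhibitory and a non-canonical ligand, lay between 2.37 and 3.79 and between 0.772 and 1.21 FPKM, and DLL4, the endothelial Delta ligand, at most at 0.145 FPKM.

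Of the 8 other genes listed as targets, 2 were called lower and 0 higher, against 6.59% and 7.01% of all tested genes. The listing was by role and family, and whether Notch drives these genes, HES2 and HES6 among them, in TFK1 cells was not tested. HES2, a HES-family repressor, went from 0.642, 0.724 and 0.485 to 0.252, 0.234 and 0.247 FPKM, which limma gave as -1.04 on the log2 scale at an adjusted p of 0.012. The oeSTUB1 libraries were close together and all below the oeNC libraries, though the call was lost without oeNC replicate 1 or 2 (adjusted p = 0.060 and 0.066 from limma). HES7, known as an oscillating gene of the somite clock, fell by 0.53 in log2 units at an adjusted p of 0.047 from limma. That call was lost in 8 of 15 alternatives. NRARP, HEYL, HEY2, HES6, SOX9 and CCND1 were not called, with adjusted p-values from limma between 0.25 and 0.92. NRARP, a feedback inhibitor induced by Notch, stood at 1.47, 1.497 and 1.55 FPKM in oeNC and 1.78, 2.38 and 1.44 FPKM in oeSTUB1 libraries.

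Among 9 genes for receptor cleavage, ADAM17 and APH1B were called lower and none was called higher, against 6.59% and 7.01% of all tested genes. The log2 fold change was above 0 for 6 of the 9 and below 0 for 3, with a median of 0.13. At an unadjusted p under 0.05 from limma, 4 were higher and 2 lower, against 16% and 13.7% of all tested genes. ADAM17, a sheddase that can cut Notch, fell from 18.7, 19.3 and 20.1 to 13.2, 11.7 and 13.6 FPKM, without overlap, which was -0.59 in log2 units at an adjusted p of 0.0039 from limma. ADAM10, the protease that cuts ligand-bound Notch in most cells, was not called (-0.11, adjusted p = 0.58 from limma). APH1B, a subunit of gamma-secretase, fell by 0.38 in log2 units at an adjusted p of 0.024 from limma, a call lost in 5 of 16 alternatives, whereas its paralogue APH1A was at 0.26 (adjusted p = 0.11 from limma). The gamma-secretase subunits PSENEN, PSEN2 and NCSTN were not called (0.43, 0.25 and 0.08, adjusted p = 0.089, 0.12 and 0.74 from limma). FURIN was not called either (0.38, adjusted p = 0.052 from limma). None of the 6 genes for sugar modification of the receptors was called, with MFNG the lowest at -0.78 (adjusted p = 0.095 from limma).

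Of 13 tested genes for endocytosis and turnover, 2 were called lower and 2 higher, against 6.59% and 7.01% of all tested genes. DTX3 and DTX3L, E3 ubiquitin ligases of the Deltex family, rose by log2 fold changes of 0.93 and 0.73 (adjusted p = 0.0026 and 0.016 from limma). DTX3 stood at 1.51, 1.63 and 1.75 FPKM in oeNC and at 2.97, 3.59 and 3.09 FPKM in oeSTUB1 libraries. NUMB, an adaptor that opposes Notch, and AAK1, a kinase that acts on NUMB, fell by 0.40 and 0.70 in log2 units, with limma's adjusted p at 0.044 and 0.019. DTX3 kept its call in all 16 alternatives, while DTX3L, NUMB and AAK1 lost theirs in 5, 7 and 3 of them.

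In the nucleus, RBPJ, the DNA-binding partner of every Notch receptor, stood at 6.06, 6.66 and 6.08 FPKM in oeNC and at 7.26, 6.05 and 6.36 FPKM in oeSTUB1 libraries and was not called (log2 fold change 0.06, adjusted p = 0.72 from limma). Where 13.6% of all tested genes were called in either direction, 1 of the 10 genes for nuclear coactivators and their partners was, namely MAML2. This Mastermind coactivator was at 0.218, 0.248 and 0.302 FPKM in oeNC and at 0.885, 0.487 and 0.742 FPKM in oeSTUB1 libraries, a rise of 1.15 in log2 units at an adjusted p of 0.017 from limma, and lost its call in 4 of 15 alternatives. MAML1 and MAML3, which were expressed at higher levels, were not called (adjusted p = 0.87 and 0.51 from limma). Of 10 genes for repressor cofactors, 3 were called higher and 1 lower, against 7.01% and 6.59% of all tested genes. The log2 fold change was below 0 for 7 and above 0 for 3, with a median of -0.12. TLE1 and TLE4, Groucho-type corepressors that HES proteins recruit, rose by 0.49 and 0.55 in log2 units, with limma's adjusted p at 0.0053 and 0.040. TLE2, TLE3 and TLE5 of the same family were not called (-0.26, -0.24 and -0.07, adjusted p = 0.11, 0.25 and 0.72 from limma). TLE5 had a mean of 108 FPKM over the 6 libraries, against 12.7 FPKM for TLE1 and 3.00 FPKM for TLE4. RITA1, which exports RBPJ from the nucleus, rose by 0.51 (adjusted p = 0.0088 from limma), and CIR1, a corepressor that binds RBPJ, fell by 0.46 (adjusted p = 0.029 from limma). The calls of TLE4 and CIR1 were each lost in 7 of 16 alternatives and that of RITA1 in 1, and TLE1 kept its call in all 16.

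**Figure D5:**
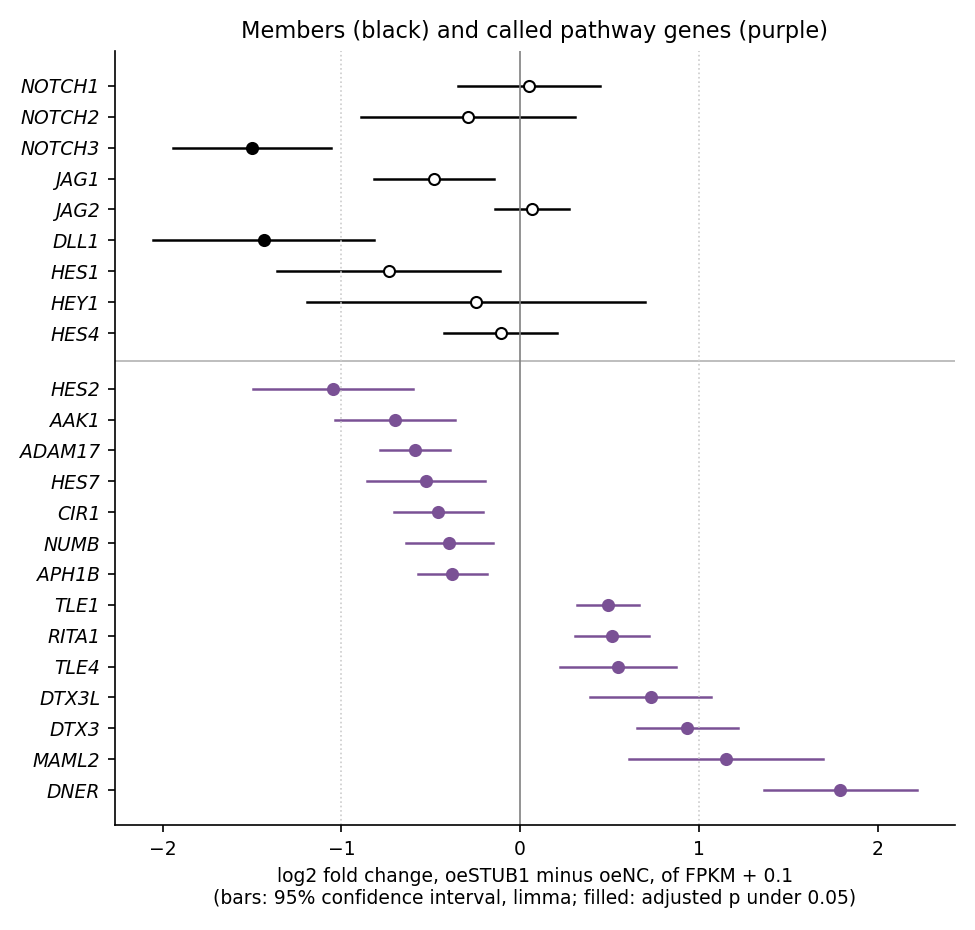
Log2 fold change of FPKM + 0.1, oeSTUB1 minus oeNC, with 95% confidence intervals from limma, for the 9 tested members in black and the 14 called pathway genes in purple, with filled symbols where the adjusted p was under 0.05. NOTCH3 and DLL1 are the filled members, at -1.50 and -1.43, and the pathway genes run from -1.04 for HES2 to 1.79 for DNER.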

How the data were processed

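RNA-seq of 6 TFK1 libraries (oeNC and oeSTUB1, n = 3 each) was analysed, grouped and numbered by their titles, which the column names match. The authors deposited FPKM values for 23569 genes. The submitters' processing notes list fastp 0.20.1, HISAT2 2.1.0, HTSeq 0.11.2, R 3.2.0, DESeq2 1.22.2 and GRCh38.p13, with no role or order, and the annotation and the use of strand are not given in the sources used here. Coordinates are those of GENCODE release 29 on GRCh38. Whole fragments, library totals and gene lengths were recovered from the steps of the FPKM values for 23569 genes, and recomputed values differed by at most 4.9e-06. A factor shared by all fragment numbers and the length of a gene leaves no trace in FPKM, so recovered fragments are a lower limit. The recovered lengths of HES4, 1920 bases, and DLL1, 3785 bases, exceed their 1118 and 3226 exon bases in GENCODE. Replicates differed by more than sampling noise (chi-square per degree of freedom from 3.48 to 82.6).

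Groups were compared in R 4.3.3 with limma 3.58.1 on log2(FPKM + 0.1), using a trend of variance with intensity and two-sided tests, with Benjamini-Hochberg adjustment over 15353 genes. The log2 scale with a pseudocount understates changes of low genes. Other steps used Python 3.11.15. Recovery and fit were tested on simulated data. The simulated libraries had a constant spread and no trend with gene length, so the simulation does not cover libraries like oeSTUB1 replicate 2. Named are the members, STUB1, called pathway genes, marker lists, NOTCH2NL copies and overlapping genes, and other genes were chosen after their values were seen. Some listed genes are not reported here. Members and lists were chosen with earlier results of these data known. Alternatives were other pseudocounts, minimum levels and scalings, no intensity trend, a replicate block, limma-voom, leaving out each library and, chosen after the data were seen, a loess correction for gene length. Chromosomes came from RefSeq (GRCh38.p14), which placed 96.7% of tested genes.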

Additional observations from a re-analysis of the deposited data

How the results depend on the processing

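NOTCH3 kept its direction and its call in all 16 alternatives, with log2 fold changes from -1.66 to -1.26. DLL1 kept its direction in the 15 that tested it and its call in 12. Leaving out 1 library gave 1 to 2 members lower and 0 to 1 higher, 1 to 10 pathway genes lower and 3 to 14 higher, and 453 to 1845 of all genes lower and 474 to 2273 higher, the most without oeSTUB1 replicate 2. A minimum mean of 1 FPKM left 1 member lower, since DLL1 and HEY1 were not tested there. With the correction for gene length 4 members were lower, NOTCH3, DLL1, JAG1 and HES1, and 1647 genes in all were lower and 1675 higher. With a replicate block 3 pathway genes were lower, against 7 without it, and no member changed its call. Correlations of same-numbered deviations were -0.0491, -0.0521 and 0.0617, against -0.0972 to 0.11 for differently numbered libraries. With so few libraries, and oeSTUB1 replicate 2 standing apart, this check cannot settle whether the replicate numbers pair the libraries. The sign turned for NOTCH1 without oeSTUB1 replicate 1 (-0.066) or 3 (-0.040), for NOTCH2 without oeSTUB1 replicate 2 (0.052) and for HEY1 without oeNC replicate 3 (0.061). Leaving out 1 library gave -0.066 to 0.252 for NOTCH1, -0.494 to 0.052 for NOTCH2 and -0.647 to 0.061 for HEY1 in log2 units, and the cause was not tested. No scaling moved the median of all genes by over 0.1. Few fragments limit what can be said of NOTCH4, DLL1 and HEY1.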

Other observations

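NOTCH2 has near-identical partial copies on chromosome 1, the NOTCH2NL genes, whose fragments a counter can assign wrongly. NOTCH2NLA, NOTCH2NLB and NOTCH2NLC lay between 0.213 and 0.583 FPKM in all 6 libraries, and NOTCH2NLR had at most 0.0140 FPKM. None of the 3 tested copies was called, with log2 fold changes of 0.04, -0.28 and -0.47 (adjusted p = 0.92, 0.35 and 0.16 from limma). Of the stretches of 100 bases in the longest GENCODE transcript of NOTCH2, which has 11389 bases, 1.45% occurred unchanged in a transcript of NOTCH2NLA and 0% in NOTCH1, NOTCH3 or NOTCH4. NOTCH2NLB, NOTCH2NLC and NOTCH2NLR were not among the transcripts searched, so the part shared with all the copies may be larger. With the copies added to NOTCH2, the share of NOTCH3 in the receptor FPKM differed between oeSTUB1 and oeNC cells by -22.0 percentage points, against -22.2 without them.

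NOTCH4 shares 98 exon bases with GPSM3 on the same strand, so that fragments there cannot be assigned with certainty. GPSM3 was at 0.533, 0.552 and 0.659 FPKM in oeNC and at 1.02, 0.558 and 0.727 FPKM in oeSTUB1 libraries. JAG2 shares 469 exon bases with AL512356.1 on the same strand, and JAG1 shares 79 with AL050403.2 on the opposite strand, and these 2 genes were not analysed here.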
